A study of Mus musculus with 22 samples.

Results

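The genes described here are the metallothioneins Mt1, Mt2 and Mt4 and Mtf1, which encodes the zinc sensor of the cell. They were chosen by name and matched through the Ensembl identifiers of the count table, and all 4 were found among its 54838 genes. RNA was sequenced from the small intestine of female FVB/N mice (FVB/NJ in the methods of the study), 8 to 14 weeks old, whose glucocorticoid receptor was wild-type (GRWT) or carried a point mutation in both alleles that hampers its dimerisation (GRDim). The mutation is present in every cell type of the animal from conception. The animals came from crosses of heterozygous parents and drank normal water or 25 mM ZnSO4 in ultrapure water for 7 days. This gave 5 libraries of GRWT on water, 5 of GRWT on zinc, 6 of GRDim on water and 6 of GRDim on zinc, 22 in all. No label states that each library is a separate animal, so p-values measure the spread between libraries only. The comparisons ask how zinc in the drinking water alters these genes in each genotype, and whether the genotypes differ.

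Metallothioneins are small proteins, rich in cysteine, that bind zinc and copper in the cytosol and buffer them. Mt1 and Mt2 are made in most tissues and are induced by metals, glucocorticoids and stress, whereas Mt4 is known chiefly from stratified epithelium such as that of the tongue. MTF1 is a transcription factor that binds zinc through its zinc fingers, moves to the nucleus and activates genes through metal response elements, and the genes for metallothioneins and for the zinc exporter ZnT1 are its best known targets.

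In the mouse genome build GRCm38, Mt4 (ENSMUSG00000031757, chr8:94137197-94139031), Mt2 (ENSMUSG00000031762, chr8:94172664-94173568) and Mt1 (ENSMUSG00000031765, chr8:94179082-94180327) lie in this order on the plus strand. Mt3 (ENSMUSG00000031760, chr8:94152607-94154146), the brain metallothionein, lies between Mt4 and Mt2. Mtf1 (ENSMUSG00000028890) is at chr4:124802104-124849800, also on the plus strand. The sequences of the 3 metallothionein promoters are shown because these genes were far more abundant on zinc. Each runs from 250 bases before the RefSeq start site through the first 50 bases of the transcript (RefSeq, GRCm38.p6, plus strand, 5′ to 3′). Capitals mark the core of the metal response element, TGCACNC or TGCGCNC, found on either strand.
Mt1, chr8:94178839-94179138: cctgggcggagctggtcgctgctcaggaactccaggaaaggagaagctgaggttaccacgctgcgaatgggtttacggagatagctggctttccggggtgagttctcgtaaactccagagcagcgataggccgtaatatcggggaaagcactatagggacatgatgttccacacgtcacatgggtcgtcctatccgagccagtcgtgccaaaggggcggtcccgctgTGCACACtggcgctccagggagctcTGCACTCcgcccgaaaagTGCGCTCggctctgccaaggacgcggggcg
Mt2, chr8:94172368-94172667: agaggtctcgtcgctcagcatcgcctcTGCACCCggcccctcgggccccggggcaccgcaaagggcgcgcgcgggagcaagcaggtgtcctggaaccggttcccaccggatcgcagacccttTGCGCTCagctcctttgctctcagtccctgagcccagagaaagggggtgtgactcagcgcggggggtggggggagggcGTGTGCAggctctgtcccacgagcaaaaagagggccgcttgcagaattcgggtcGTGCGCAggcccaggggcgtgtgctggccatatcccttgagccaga
Mt4, chr8:94136954-94137253: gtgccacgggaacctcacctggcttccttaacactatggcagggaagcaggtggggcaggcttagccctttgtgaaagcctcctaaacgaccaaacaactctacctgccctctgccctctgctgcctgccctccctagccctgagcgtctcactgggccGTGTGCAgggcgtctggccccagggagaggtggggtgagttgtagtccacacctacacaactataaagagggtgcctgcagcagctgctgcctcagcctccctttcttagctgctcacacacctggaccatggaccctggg

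The Mt1 window held 3 matches to the metal response element core, and 3 or more were found in 1.97% of 32841 RefSeq promoter windows of the same length. The Mt2 window held 4 matches, against 0.518% of windows with 4 or more. The Mt4 window held 1 match, as 25.7% of windows held at least 1, and the Mtf1 window held 0. A glucocorticoid response element, GNACA and TGTNC with any 3 bases between them, was matched once in the Mt1 window, its leftmost base 94 bases before the start site, and in 0.475% of all windows. The core of the antioxidant response element, TGACNNNGC, was matched once in the Mt2 window and in 12.4% of all windows. No matches overlapped each other, and both strands were read for each motif. In the GENCODE annotation used for gene names, the first transcript of Mt2 starts 46 bases after the RefSeq start, and that of Mt1 starts close to it. Other annotated transcripts start 122 and 152 bases after it for Mt1 and 242 bases after it for Mt2. The matches were counted around the RefSeq start only. A match describes the letters in the window, and binding was not measured in these data.

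**Figure D1:**
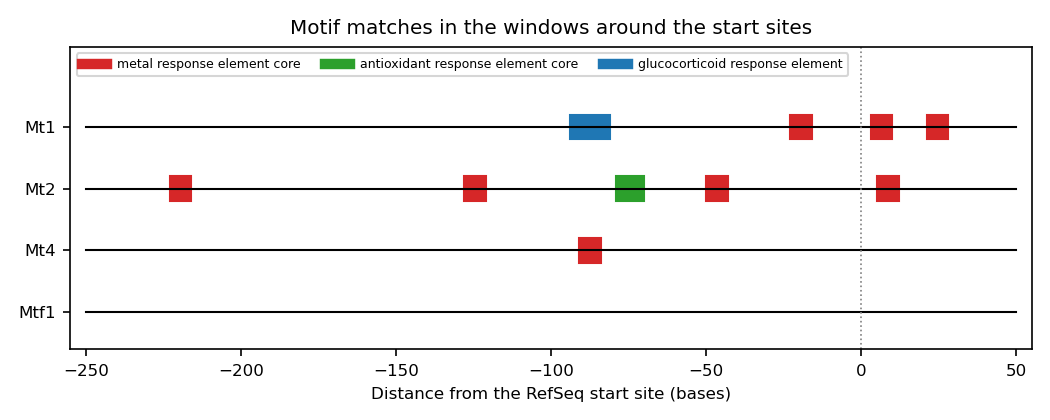
Matches to 3 motifs in the windows around the start sites of Mt1, Mt2, Mt4 and Mtf1, by distance in bases from the RefSeq start site (dotted line); each bar covers the matched letters. Mt1 has 3 metal response element cores, Mt2 has 4, Mt4 has 1 and Mtf1 has 0.

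Library totals ran from 13149951 to 15620744 counts, and the detection floor of 3 counts lay between 0.192 and 0.228 CPM, the count scaled by library size. Smooth-muscle RNA split the libraries, and 12 had Myh11, the myosin heavy chain of smooth muscle, at 298 to 463 CPM (muscle-rich) while 10 had it at 3.22 to 20.5 CPM (muscle-poor). The labels ileum and IEC, for intestinal epithelial cells, did not follow this split. All IEC libraries of GRDim on water were muscle-rich, and all IEC libraries of GRDim on zinc were muscle-poor. The epithelial markers were expressed in both classes. All 10 were found, and their summed level ran from 19824 to 24495 CPM in muscle-rich and from 30056 to 45808 CPM in muscle-poor libraries. GRWT zinc ileum replicate 3 (muscle-poor) stood apart from the rest. Its Fabp6, the ileal bile acid binding protein, was at 18.3 CPM against 3967 to 11537.5 CPM elsewhere, and its 6 proximal small intestine markers summed to 32480.4 CPM against 677 to 1298 CPM. It is the library whose segment markers go against its label, and the main results that rest on it are given with and without it. The mutation leaves the receptor transcript in place, so no count checks the genotype labels. The series was sequenced in 2 sets, and which library belongs to which set is not given in the sources used here.

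Zinc raised Mt1, Mt2 and Mt4 in both genotypes and in both muscle classes. Mt1 rose about 31.1-fold in GRWT and 17.4-fold in GRDim, Mt2 rose 43.6-fold and 27.1-fold, and Mt4 went from at most 3 reads to 72 to 403 reads per library. Levels below are CPM after TMM normalisation, which scales libraries so that most genes agree. Fold changes are on the log2 scale ± SE from the edgeR quasi-likelihood F test with muscle class as covariate, with Benjamini-Hochberg adjusted p-values over 15641 genes. A gene was called when its adjusted p was under 0.05 and its log2 fold change beyond 0.8 in either direction. In bulk tissue, fewer cells that make a transcript and less of it per cell cannot be told apart.

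Mt1 was the most abundant metallothionein. In GRWT mice on water it was at 38.8, 27.2 and 69.8 CPM in the muscle-rich libraries and at 167 and 163 CPM in the muscle-poor ones. In GRWT mice on zinc it was at 2317, 1665 and 2287 CPM in the muscle-rich libraries and at 2405 and 4499 CPM in the muscle-poor ones. Every zinc library lay far above every water library, and the highest value was that of the library with proximal markers. In GRDim mice on water, Mt1 was at 71.4, 77.2 and 53.2 CPM in muscle-rich and at 82.7, 98.8 and 121 CPM in muscle-poor libraries. On zinc these became 1332, 1630.4 and 1275 CPM in muscle-rich and 1304, 1229 and 1542 CPM in muscle-poor libraries. The water and zinc groups did not overlap in GRDim either, and on zinc the 2 muscle classes of GRDim overlapped. The log2 fold change of Mt1 was 4.96 ± 0.36 in GRWT (95% interval 4.21 to 5.71, adjusted p = 8.89e-08) and 4.12 ± 0.31 in GRDim (adjusted p = 2.29e-07). By p-value it ranked 2 among all genes tested in each genotype. Without GRWT zinc ileum replicate 3 the value in GRWT was 4.81 (adjusted p = 2.37e-06), and leaving out each of the 22 libraries in turn gave 4.74 to 5.15 in GRWT and 3.98 to 4.23 in GRDim, called each time.

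Mt2, which shares the role of Mt1 and lies next to it, was at a lower level in every library. On water it was at 4.10, 2.07 and 9.0 CPM in the muscle-rich GRWT libraries and at 35.7 and 22.8 CPM in the muscle-poor ones. On zinc it was at 509, 329 and 530.1 CPM in the muscle-rich and at 542 and 797 CPM in the muscle-poor GRWT libraries. Again no zinc library overlapped a water library, and on water both muscle-poor GRWT libraries were above all others of either genotype. In GRDim on water Mt2 was at 8.74, 11.5 and 3.71 CPM in muscle-rich and at 6.23, 10.4 and 16.3 CPM in muscle-poor libraries. In GRDim on zinc it was at 185, 285 and 224 CPM in muscle-rich and at 303, 221 and 282 CPM in muscle-poor libraries. The classes of GRDim overlapped in both waters. The log2 fold change of Mt2 was 5.45 ± 0.51 in GRWT (adjusted p = 4.81e-06) and 4.76 ± 0.45 in GRDim (adjusted p = 7.48e-06). Without GRWT zinc ileum replicate 3 the value in GRWT was 5.36.

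Mt4 was hardly detected on water. The muscle-rich GRWT libraries on water held 0, 0 and 1 reads and the muscle-poor ones held 2 and 2, and the GRDim libraries on water held 2, 3 and 0 (muscle-rich) and 2, 2 and 3 (muscle-poor). None of these was above the floor of 3 counts, and the counts of 0 allow up to 0.197, 0.224 and 0.195 CPM in their libraries. On zinc, GRWT held 346, 72 and 164 reads in muscle-rich and 335 and 400 reads in muscle-poor libraries. GRDim on zinc held 403, 283 and 354 reads in muscle-rich and 181, 255 and 144 reads in muscle-poor libraries. Every zinc library was thus well above every water library, with a wide spread between the GRWT libraries on zinc. In GRWT the summed reads were 1317 on zinc and 5 on water, a ratio of 257 after scaling by library size, with a counting interval of 110 to 791. The ratio was 224 (95.7 to 692) without GRWT zinc ileum replicate 3. In GRDim the sums were 1620 and 12 reads, a ratio of 138 (78.6 to 267). These intervals cover counting error only. The fitted log2 fold changes were 7.95 ± 0.69 in GRWT (adjusted p = 1.63e-06) and 7.08 ± 0.57 in GRDim (adjusted p = 4.95e-07), and with so few reads on water their size depends on the prior count.

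Mtf1 was expressed in every library and was not called under zinc in either genotype. In the muscle-rich libraries it was at 54.9, 54.1 and 58.7 CPM in GRWT on water and at 56.3, 52.2 and 48.6 CPM in GRWT on zinc. In the muscle-poor ones it was at 84.0 and 80.9 CPM and at 88.5 and 81.5 CPM, so that water and zinc overlapped within each class. GRDim on water had 62.3, 57.4 and 58.5 CPM in muscle-rich and 85.6, 84.7 and 75.2 CPM in muscle-poor libraries. GRDim on zinc had 68.6, 64.1 and 60.9 CPM in muscle-rich and 81.8, 84.8 and 86.2 CPM in muscle-poor libraries. Water and zinc overlapped in GRDim as well. The log2 fold change of Mtf1 under zinc was -0.04 ± 0.07 in GRWT (95% interval -0.17 to 0.10, adjusted p = 0.816) and 0.08 ± 0.06 in GRDim (-0.04 to 0.21, adjusted p = 0.536).

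Of the 4 genes, 3 were called higher on zinc in GRWT, where 0.128% of all genes tested were, and the same 3 in GRDim, where 0.243% were. The zinc and water groups did not overlap for these 3 genes in either genotype. Among all genes tested, every zinc library was above every water library for 1% in GRWT and 1.11% in GRDim.

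**Figure D2:**
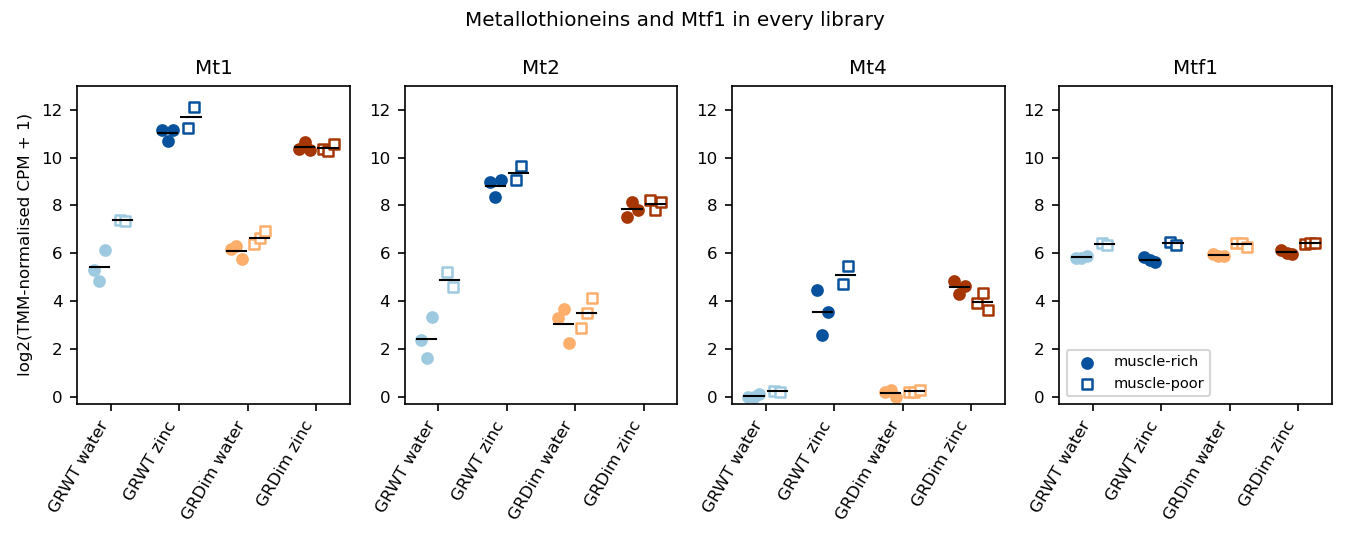
Levels of Mt1, Mt2, Mt4 and Mtf1 in every library, as log2(TMM-normalised CPM + 1), in the 4 conditions; filled circles are muscle-rich and open squares muscle-poor libraries, and lines are means of each class. Mt1, Mt2 and Mt4 sit higher in every zinc library than in every water library, while Mtf1 follows the muscle class.

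Fits within each muscle class gave the same 3 genes. In the muscle-rich libraries zinc raised Mt1, Mt2 and Mt4 by 5.53, 6.49 and 8.69 in GRWT (adjusted p = 0.00128, 0.00153 and 0.0109), where 0.107% of 15947 genes were called higher. In GRDim the values were 4.37, 4.85 and 7.66 (adjusted p = 0.000635, 0.00132 and 0.00136), where 0.771% were. In the muscle-poor libraries the values were 4.41, 4.54 and 7.65 in GRWT (adjusted p = 0.00212, 0.0141 and 0.00095), where 0.036% of 13908 genes were called higher. This share is uncertain, as the 6 genes called there in either direction became 2 to 4365 on leaving out 1 library and 449 with DESeq2. In GRDim they were 3.75, 4.61 and 6.33 (adjusted p = 0.00172, 0.00283 and 0.000739), where 0.0288% were. The summed markers of 2 of the 9 cell type and segment lists did not overlap between water and zinc in each genotype and class. These groups held 2 or 3 libraries each, where separation can arise by chance, and its share over all genes was not counted. In GRDim, T cell markers were at 232 to 261 CPM on water and 135 to 146 CPM on zinc in muscle-rich and at 193 to 310.2 CPM and 116 to 173 CPM in muscle-poor libraries. Epithelial markers in muscle-rich GRDim libraries were at 19824 to 21285 CPM on water and 23064 to 24416 CPM on zinc, plasma and B cell markers in muscle-poor ones at 27.3 to 40.6 CPM and 8.70 to 20.7 CPM. In GRWT the lists were smooth muscle (2313 to 2532 CPM and 1679 to 2212 CPM) and proximal small intestine (695 to 747 CPM and 771 to 837 CPM) in muscle-rich libraries, and fibroblast (34.0 to 56.1 CPM and 15.2 to 27.5 CPM) and ileum (14364 to 14657 CPM and 380.4 to 13351 CPM) in muscle-poor ones. The part of these cells in the metallothionein values was not tested. The muscle-poor GRWT groups held 2 libraries each. Without GRWT zinc ileum replicate 3 the muscle-poor values of GRWT were 3.86, 4.21 and 7.21, and the call of Mt1 there was lost without GRWT water ileum replicate 2 or 3 (adjusted p up to 0.119). The call of Mt2 there was lost without any of 6 of the 10 muscle-poor libraries, and that of Mt4 in muscle-rich GRWT without GRWT water IEC replicate 4 or 5 or GRWT water ileum replicate 1 (adjusted p up to 0.10).

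Whether zinc acted differently in the 2 muscle classes was tested in a fit with a separate mean for each condition and class. In GRWT the zinc effect on Mt1 was larger in muscle-rich libraries by 1.14 ± 0.44 (adjusted p = 0.204) and that on Mt2 by 1.97 ± 0.68 (adjusted p = 0.172). Neither passed the test, which called 0.0192% of genes. The values were 1.70 (adjusted p = 0.362) and 2.31 (adjusted p = 0.459) without GRWT zinc ileum replicate 3. The differences for Mt4 (1.01 ± 1.71, adjusted p = 0.768) and Mtf1 (-0.14 ± 0.11, adjusted p = 0.518) were not called either. In GRDim the differences were 0.64 for Mt1, 0.26 for Mt2, 1.33 for Mt4 and 0.08 for Mtf1, and the edgeR test called 0% of genes, with 574 genes at an unadjusted p under 0.05 and 1 gene called by DESeq2. Whether the interaction of zinc and genotype differed between the classes was tested in addition to the planned comparisons, with edgeR alone. The value was -0.50 ± 0.59 for Mt1 (adjusted p = 0.758), -1.72 ± 0.91 for Mt2 (adjusted p = 0.536) and 0.22 ± 0.15 for Mtf1 (adjusted p = 0.617), rested on too few reads for Mt4, and 0% of genes were called, with 1483 at an unadjusted p under 0.05. In GRWT on water, Mt1 was at 27.2 to 69.8 CPM in the muscle-rich libraries against 163 to 167 CPM in the muscle-poor ones. Water levels are the base of the fold changes, and their part in these uncalled differences was not tested.

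**Figure D3:**
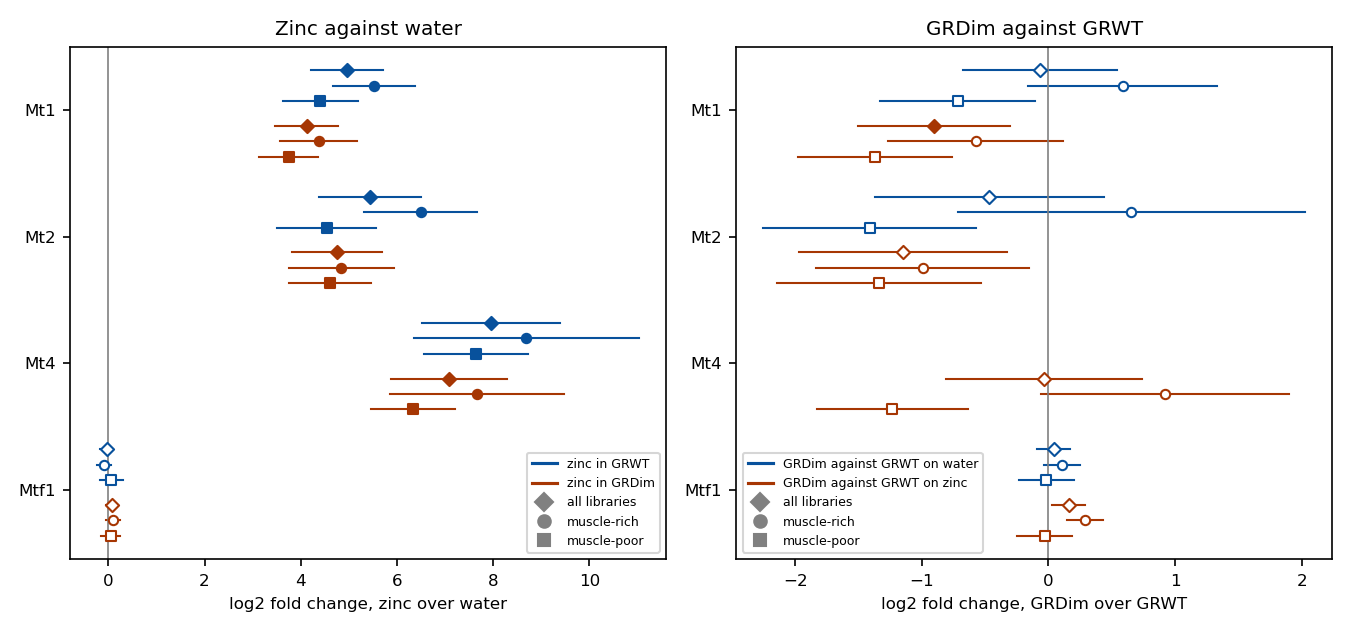
Log2 fold changes of the 4 genes with 95% intervals, zinc over water (left) and GRDim over GRWT (right), from all libraries (diamonds), muscle-rich (circles) and muscle-poor libraries (squares); filled symbols passed the test. Zinc raised Mt1, Mt2 and Mt4 in all 6 fits, and between genotypes the single filled symbol is Mt1 on zinc at -0.90. Mt4 on water is left out because its counts were 3 or less.

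Per length of transcript, which allows genes to be compared, the order of the genes changed with zinc. Values of Mt2 may have gained or lost reads over the antisense gene Gm45774, which shares 432 of its 588 exon bases, while Mt1 overlaps no other gene. Neither the strand setting of the counting nor its handling of reads in overlapping genes is given. The part of this in the levels of Mt2, and in their place below Mt1, was not tested. On water in GRWT the mean levels were 169.7 CPM per kb for Mt1, 28.8 ± 27.9 for Mt2, 8.72 ± 1.93 for Mtf1 and 0.196 for Mt4 (n = 5). The libraries of Mt2 and Mtf1 overlapped on this scale. On zinc in GRWT the mean levels were 4799 CPM per kb for Mt1, 1059.9 for Mt2, 52.6 for Mt4 and 8.58 for Mtf1. The highest values of Mt1, Mt2 and Mt4 (8195, 1560 and 107 CPM per kb) were those of GRWT zinc ileum replicate 3. The medians of these genes were 4220, 1037 and 52.3 CPM per kb. In GRDim the order on water was 153, 18.6, 9.25 and 0.354 CPM per kb for Mt1, Mt2, Mtf1 and Mt4, and the libraries of Mt2 and Mtf1 overlapped there as well (7.26 to 31.9 and 7.52 to 11.2 CPM per kb). On zinc it was 2524, 489, 47.8 and 9.75 CPM per kb for Mt1, Mt2, Mt4 and Mtf1. Mt4 thus passed Mtf1 on zinc in both genotypes but remained far below Mt1 and Mt2. Together the 3 metallothioneins took 0.0103% of all counts in GRWT on water and 0.290% on zinc, and 0.00958% and 0.167% in GRDim.

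On water, none of the 4 genes was called between genotypes. Mean Mt1 was 93.1 CPM ± 67.4 (SD, n = 5) in GRWT and 84.1 CPM ± 23.5 (SD, n = 6) in GRDim, a log2 difference of -0.07 ± 0.29 (95% interval -0.68 to 0.54, adjusted p = 0.904). The difference for Mt2 was -0.47 ± 0.43 (adjusted p = 0.485), and that for Mtf1 was 0.04 ± 0.06 (adjusted p = 0.685). Mt4 was at or under the floor in both genotypes and no fold is given. Against these 0 of 4 genes, 5.73% of all genes were called in either direction. Mt1 and Mt2 went opposite ways in the 2 classes, with 0.58 and 0.65 in muscle-rich and -0.71 and -1.41 in muscle-poor libraries, none of them called. There 10.5% of genes were called in muscle-rich and 0.0288% in muscle-poor libraries. Without GRWT water ileum replicate 1, the value of Mt1 in muscle-rich libraries was 1.04 and was called (adjusted p = 0.0119).

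On zinc, Mt1 was lower in GRDim than in GRWT mice, and Mt2 differed in the same direction without passing the test. Mean Mt1 was 2634.6 CPM ± 1083 (SD, n = 5) in GRWT and 1385 CPM ± 162 (SD, n = 6) in GRDim. Every GRDim library lay below every GRWT library, although the highest of GRDim (1630.4 CPM) was close to the lowest of GRWT (1665 CPM). The log2 difference was -0.90 ± 0.29 (95% interval -1.50 to -0.30, adjusted p = 0.0482), just inside the threshold. Mt2 was at 542 CPM ± 167 in GRWT and 249.95 CPM ± 46.6 in GRDim and likewise did not overlap. Its difference of -1.15 ± 0.39 (-1.97 to -0.33, adjusted p = 0.0622) was larger and was not called. Mt1 was the 1 gene of the 4 called, where 2.27% of all genes were called lower in GRDim. For 1.27% of all genes every GRDim library was below every GRWT library on zinc, and this held for 2 of the 4 genes.

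The call of Mt1 between genotypes on zinc depended on single libraries and on the settings, and 7 of 12 other settings did not call it. These were no count filter, the tissue label as covariate, no covariate, a replicate block, the conditions compared alone and each muscle class alone. Without GRWT zinc ileum replicate 3, mean Mt1 in GRWT on zinc was 2168 CPM ± 339 (SD, n = 4), and the difference was -0.78 (adjusted p = 0.135). That of Mt2 was then -1.12 (adjusted p = 0.0839). Of the 22 fits that left out 1 library each, 6 called Mt1: those without GRWT water IEC replicate 4 or 5, GRWT water ileum replicate 2 or 3, GRWT zinc ileum replicate 2 or GRDim zinc ileum replicate 2. The other 16 did not. Mt2 was called in 3 of them, without GRWT water IEC replicate 5, GRWT water ileum replicate 2 or GRWT zinc ileum replicate 2. The difference kept its sign in all of these fits, from -1.05 to -0.78 for Mt1 and from -1.32 to -1.04 for Mt2.

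**Figure D4:**
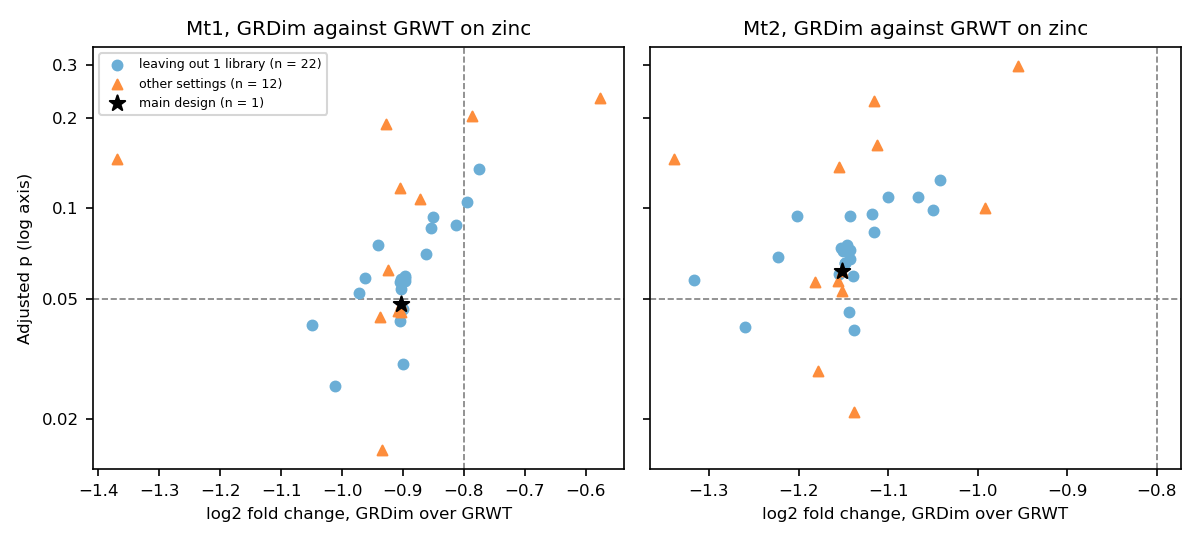
Mt1 (left) and Mt2 (right), GRDim against GRWT on zinc, as log2 fold change against adjusted p (log axis) in the main design (star), under 12 other settings (triangles) and without each of the 22 libraries (circles); dashed lines mark an adjusted p of 0.05 and a log2 fold change of -0.8. All points lie below 0 on the horizontal axis, and the adjusted p lies on both sides of 0.05.

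Within the muscle classes the difference on zinc was not called for Mt1 or Mt2, and whether it differed between the classes was not tested. In muscle-rich libraries Mt1 and Mt2 differed by -0.58 (adjusted p = 0.232) and -0.99 (adjusted p = 0.10), and the groups did not overlap for 2 of the 4 genes in this direction, against 16.6% of all genes. The test called 0 of the 4 genes lower there, against 1.97% of genes. In muscle-poor libraries Mt1, Mt2 and Mt4 differed by -1.37, -1.34 and -1.23 (adjusted p = 0.146 for each), and none was called, where 0.0144% of genes were called lower. The 8 genes called there in either direction became 3 to 4551 on leaving out 1 library and 750 with DESeq2. The groups did not overlap for these 3 genes, against 13.6% of all genes. The GRWT group there held 2 libraries, 1 of which was the library with proximal markers. Without it the values were -0.81, -1.0 and -0.78. Among the muscle-rich zinc libraries, 4 of 9 marker lists did not overlap between genotypes. With 3 libraries in a group separation is not rare, as the 16.6% of all genes with GRDim lower shows. The 6 Paneth cell markers summed to 5942 to 8007 CPM in GRWT and 1873 to 4246 CPM in GRDim, and the 5 plasma and B cell markers to 1039.8 to 1748 CPM and 3334 to 4251 CPM. The T cell markers were higher in GRDim (135 to 146 CPM against 32.3 to 56.5 CPM) and the enteric neuron and glia markers lower (10.4 to 12.1 CPM against 14.2 to 16.7 CPM). In the muscle-poor libraries every list overlapped, and the part of these cells in the values of Mt1 and Mt2 was not tested.

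Mt4 was not called between genotypes on zinc. It was at 20.8, 4.96 and 10.7 CPM in muscle-rich and 25.5 and 42.7 CPM in muscle-poor GRWT libraries on zinc, and at 28, 18.4 and 23.5 CPM and 14, 19.0 and 11.2 CPM in those of GRDim. The genotypes overlapped in the muscle-rich libraries, where most GRDim values were higher, and did not in the muscle-poor ones, where all GRDim values were lower. The log2 difference was -0.04 ± 0.37 over all libraries (95% interval -0.81 to 0.74, adjusted p = 0.964) and 0.31 without GRWT zinc ileum replicate 3. In muscle-rich libraries it was 0.92 (adjusted p = 0.178), and it was 1.56 and called without GRWT zinc IEC replicate 4. Mtf1 was slightly higher in GRDim on zinc, by 0.16 ± 0.06 (adjusted p = 0.0971), which was not called. In muscle-rich libraries the difference was 0.29 ± 0.07 (adjusted p = 0.00769), under the fold threshold, and ranked 1237 by p-value among 15947 genes. The groups of 48.6 to 56.3 CPM and 60.9 to 68.6 CPM did not overlap. The share of all genes that separate with GRDim higher was not counted, and with GRDim lower it was 16.6%. In muscle-poor libraries it was -0.03.

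The difference between the zinc effects of the 2 genotypes was not called for any of the 4 genes. It was -0.84 ± 0.41 for Mt1 (95% interval -1.69 to 0.02, adjusted p = 0.651), -0.68 ± 0.59 for Mt2 (-1.91 to 0.54, adjusted p = 0.779) and 0.12 ± 0.09 for Mtf1 (adjusted p = 0.750). For Mt4 it was -0.87 ± 1.36 (adjusted p = 0.890) and rests on the few reads on water. The edgeR test called 0% of all genes, with 1184 at an unadjusted p under 0.05 and 1 called by DESeq2. The values were -0.70 for Mt1 and -0.61 for Mt2 without GRWT zinc ileum replicate 3. With all libraries the interval of Mt1 includes both no difference and a zinc effect smaller in GRDim by 1.69. In muscle-rich libraries the values were -1.16 for Mt1 (adjusted p = 0.271) and -1.65 for Mt2 (adjusted p = 0.314), where 0.263% of genes were called. In muscle-poor libraries they were -0.65 (adjusted p = 0.749) and 0.07 (adjusted p = 0.962), where edgeR called 0% of genes, with 648 at an unadjusted p under 0.05 and 4 called by DESeq2. Without GRWT zinc ileum replicate 2 the muscle-poor value of Mt1 was -1.04 and was called (adjusted p = 0.00407), and GRWT on zinc was then a single muscle-poor library, the one with proximal markers, which the fit assumes to vary like the other groups.

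Mtf1 was separated by muscle class. It ran from 48.6 to 68.6 CPM in the 12 muscle-rich and from 75.2 to 88.5 CPM in the 10 muscle-poor libraries after TMM normalisation. The classes did not overlap, as was the case in this direction for 6.92% of all genes. Scaled by library totals, muscle-poor GRWT zinc ileum replicate 3 was at 52.2 CPM, below the muscle-rich range of 54.4 to 72.2 CPM, while the other muscle-poor libraries stayed above that range. With condition in the fit, muscle-rich libraries had less Mtf1 by a log2 difference of -0.51 ± 0.04 (95% interval -0.61 to -0.42, adjusted p = 1.68e-09), short of the fold threshold. Mt1 was lower by -0.73 ± 0.21 (adjusted p = 0.00451), also short of it. Mt2 was lower by -0.84 ± 0.29 (adjusted p = 0.0183) and was the 1 gene of the 4 called, where 3.58% of all genes were called lower. Mt4 differed by -0.39 ± 0.35 (adjusted p = 0.351). The call of Mt2 was lost in 7 of 22 fits without 1 library, namely GRDim water IEC replicate 6, GRDim water ileum unnumbered b, GRWT water IEC replicate 4 or 5, GRWT water ileum replicate 2, GRWT zinc IEC replicate 5 and GRWT zinc ileum replicate 3, without which it was -0.76 (adjusted p = 0.0394). The summed epithelial markers moved the same way, with medians of 22607 CPM in muscle-rich and 32463 CPM in muscle-poor libraries, and their part in these differences was not tested.

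Mt1 and Mt2 varied together from library to library. Over log2 levels, r between them was 0.95 across the 11 water libraries and 0.94 across the 11 zinc libraries. After removal of the mean of each condition and class, r was 0.93 on water and 0.83 on zinc. Mt1 and Mt4 had an r of 0.82 on water, where Mt4 had at most 3 reads, and 0.37 on zinc (0.69 and 0.44 after removal of these means). Mt1 and Mtf1 had an r of 0.82 on water and -0.004 on zinc (0.16 and -0.23). These are descriptions, and the points share depth, sets of libraries and scaling factors. The plot of the 2 levels per length shows that Mt1 was above Mt2 in every library, with the limit given above for the reads of Mt2.

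**Figure D5:**
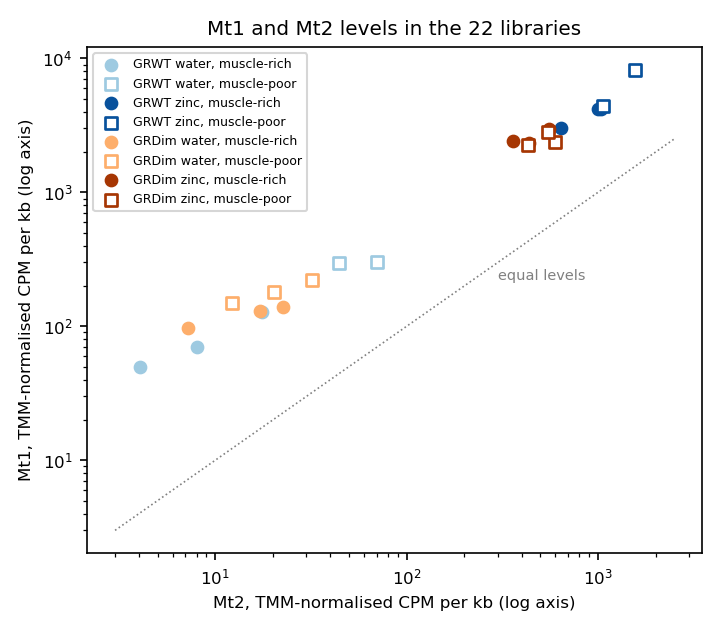
Mt1 against Mt2 in the 22 libraries, as TMM-normalised CPM per kb of transcript on log axes; the dotted line marks equal levels. All libraries lie above the line, and zinc libraries form a tight group at the upper right, with GRWT above GRDim.

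Mt3, which lies in the same cluster, stayed at 0.107 to 1.46 CPM in all libraries. Its log2 fold change under zinc was -0.03 (adjusted p = 0.978) in GRWT and 0.19 (adjusted p = 0.839) in GRDim. Of 9 further genes within 100 kb of the metallothioneins, Mt3 included, 5 were tested and 1 was called higher on zinc in each genotype, where 0.128% (GRWT) and 0.243% (GRDim) of all genes were. This was Gm45774, an antisense gene that shares 432 of the 588 exon bases of Mt2 on the minus strand. It went from 0 to 0.196 CPM on water to 1.5 to 6.62 CPM on zinc in GRWT and from 0.0589 to 0.231 CPM to 0.278 to 2.01 CPM in GRDim. Its log2 fold change under zinc was 5.05 ± 0.56 in GRWT and 2.64 ± 0.58 in GRDim (adjusted p = 0.0253). The size of these values depends on the prior count, since every water library held 3 reads or fewer. The call in GRDim was lost in muscle-rich (adjusted p = 0.166) and muscle-poor libraries alone (adjusted p = 0.378), as was that in GRWT in muscle-poor ones (adjusted p = 0.175). On zinc Gm45774 was called lower in GRDim, by -2.35 ± 0.39 (adjusted p = 0.00536), and by -2.16 (adjusted p = 0.00556) without GRWT zinc ileum replicate 3. The strand setting of the counting is not given in the sources used here, so its reads and those of Mt2 cannot be told apart. Mtf1 shares 721 of its 8907 exon bases with 1110065P20Rik on the minus strand, which was not called under zinc in either genotype.

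A list of 12 other genes, here called the zinc-handling list, held zinc transporters, genes known or proposed as targets of MTF1, and Mt3. In GRWT zinc raised 2 of them and lowered 2, where 0.128% of all genes were called higher and 0.0384% lower. Slc30a2, a zinc exporter into vesicles, rose by 2.25 ± 0.20 (adjusted p = 2.23e-06), and Ndrg1, a stress-induced gene, rose by 1.03 ± 0.19. Slc39a4, the main zinc importer of the gut lumen, fell by 2.58 ± 0.13 (adjusted p = 2.01e-10), and the importer Slc39a10 fell by 0.90 ± 0.19 (adjusted p = 0.0450). In GRDim, 3 rose, namely Slc30a2 by 1.73, Slc30a10 by 1.06 and Ndrg1 by 0.94, and Slc39a4 fell by 1.65. There 0.243% of all genes were called higher and 0.313% lower. The median log2 fold change of the list was 0.07 in GRWT and 0.22 in GRDim, where the median over all genes was -0.0033 and 0.0031. Between genotypes on zinc, Slc30a2 and Slc30a10 were lower in GRDim by log2 values of -0.90 (adjusted p = 0.0110) and -0.83 (adjusted p = 0.0259), where 2.27% of all genes were called lower. Without GRWT zinc ileum replicate 3 the list held 1 higher (Slc30a2) and 1 lower (Slc39a4) in GRWT, and 3 higher and 1 lower in GRDim. Of all 15780 genes tested in that fit, 18 were called higher and 6 lower in GRWT, and 141 higher and 132 lower in GRDim. Between genotypes on zinc neither Slc30a2 (-0.63) nor Slc30a10 (-0.73) was then called. Each muscle class alone gave the same 1 higher and 1 lower in GRWT. Of all genes, 17 of 15947 were called higher and 9 lower in muscle-rich, and 5 of 13908 higher and 1 lower in muscle-poor libraries. Ndrg1 (adjusted p = 0.0955 in muscle-rich and 0.228 in muscle-poor) and Slc39a10 (adjusted p = 0.0529 and 0.271) lost their calls. In GRDim the muscle-rich libraries gave 3 higher and 1 lower, where 123 of all 15947 genes were called higher and 89 lower. The muscle-poor ones gave 0 higher and 1 lower, with Slc30a2 at an adjusted p of 0.0861, where 4 of all 13908 genes were called higher and 4 lower. Slc30a1, which encodes ZnT1 and is given for that role after its values were seen, was not called under zinc, at 0.19 (adjusted p = 0.433) in GRWT and 0.27 (adjusted p = 0.218) in GRDim. On water Slc30a10 was lower in GRDim by -1.31, and for the interaction 0 of the 12 were called by edgeR.

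The 5 genes whose log2 levels were most like those of Mt1 over the 22 libraries, among 14057 compared without the members and genes that overlap them, were Rab29 (r = 0.94), Slc30a2 (r = 0.92), Fam210b (r = 0.88), Ppp1r21 (r = 0.87) and Mfsd10 (r = 0.86). Within condition and class the r of these genes with Mt1 was 0.46, 0.63, 0.77, 0.24 and -0.21. Those most like Mtf1 were Trim31 (r = 0.97), a ubiquitin ligase, Tlnrd1 (r = 0.96), the motor protein gene Myo6 (r = 0.95), Tep1 (r = 0.95) and Plekha7 (r = 0.95). Within condition and class they had an r of 0.29, 0.57, 0.55, 0.25 and 0.21 with Mtf1.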

How the data were processed

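Per the labels and the methods of the study, ileum was washed and kept in RNAlater, or for IEC samples the inner layer of the distal ileum was scraped off after lysis buffer, stranded single-end libraries were sequenced on a NextSeq 500, and reads were mapped to mm10 with HISAT2 2.0.4 and counted per gene with featureCounts, without reads of several origins. The deposited table holds raw counts, with no normalisation by the authors. Identifiers were named from GENCODE vM21 (54809 of 54838 found), and 0 columns of values could not be assigned. Columns of GRDim water ileum that share a name are called unnumbered a and b.

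Libraries with Myh11 over 100 CPM were called muscle-rich. Counts were tested with edgeR 4.0.16 in R 4.3.3 (TMM, filterByExpr, quasi-likelihood F test with robust estimation) on 22 libraries with muscle class as covariate, within each class, and with a mean for each condition and class. The table of all genes was fitted, and the fit was tested on simulated data. DESeq2 1.42.0, other scalings, filters and covariates, a replicate block and leaving out each library were tried as alternatives. Libraries with the same replicate number did not deviate together, as 9 of 25 pairs had an r over 0.1 (median -0.04), against 41 of 124 pairs of different number (median -0.04). The zinc-handling list was also fitted without GRWT zinc ileum replicate 3, a choice made after seeing the data. No replicates were duplicates by a chi-square test of their counts.

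The 4 members are reported in every comparison, apart from Mt4 between genotypes on water and in the interaction by muscle class, where its reads were too few. Other genes named are called genes of the zinc-handling list of 12 and genes within 100 kb that were called or overlap a member. Mt3 and Slc30a1 from that list are named outside this rule. The 5 genes most like Mt1 and Mtf1 with a mean of at least 1 CPM are named too. The members and lists were chosen with earlier results of these data known. Lengths are those of the spliced main transcripts, 549 bases for Mt1, 511 for Mt2, 398 for Mt4 and 7631 for Mtf1. Promoter windows were read from RefSeq (GRCm38.p6).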

Additional observations from a re-analysis of the deposited data

Results flagged for a closer look

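Mt1 in GRWT zinc ileum replicate 3, at 4499 CPM after TMM normalisation, lay far from the other GRWT libraries on zinc (1665 to 2405 CPM), with a gap of 0.739 of the range of the group. Scaled by library totals it was at 2884 CPM against 1761 to 2557 CPM, a gap of 0.292 of the range, because its TMM factor was 0.641 and those of all other libraries were 0.909 to 1.12. Of the 4 genes in 4 conditions, 16 groups were examined, and chance sets apart about 1 in 20. The part of the proximal markers of this library in its Mt1 level was not tested.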

How the results depend on the processing

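Under 12 other settings and without each library, zinc raised Mt1, Mt2 and Mt4 in both genotypes (Mt1 4.41 to 5.53 in GRWT and 3.75 to 4.37 in GRDim), Mtf1 was never called, and no called value changed sign. Of values that were not called, 14 changed sign under a setting and 25 without a library. Mt1 between genotypes on zinc was not called with no count filter (-0.91), the tissue label as covariate (-0.79), no covariate (-0.93), the conditions compared alone (-0.92), or muscle-rich (-0.58) or muscle-poor libraries alone (-1.37). With the replicate block, on 20 numbered libraries whose numbers do not pair them, it was -0.87, also not called, and Mt2 between muscle classes was -0.68 and not called. Mt2 between genotypes on zinc was called by DESeq2 (-1.18), with the conditions compared alone (-1.14), and in muscle-rich libraries without robust estimation (-0.99). In muscle-poor libraries DESeq2 called Mt1, Mt2 and Mt4 between genotypes on zinc at -1.38, -1.35 and -1.24. The causes were not tested.

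Leaving out 1 library each gave, between genotypes on zinc, -1.05 to -0.78 for Mt1 and -1.32 to -1.04 for Mt2. For Mt2 between muscle classes it gave -0.92 to -0.68. In muscle-rich libraries it gave 8.06 to 10.56 for Mt4 under zinc in GRWT, 0.32 to 1.04 for Mt1 between genotypes on water and 0.56 to 1.56 for Mt4 between genotypes on zinc. In muscle-poor libraries it gave, under zinc, 3.86 to 4.79 for Mt1 and 4.21 to 4.89 for Mt2 in GRWT, and 4.33 to 5.01 for Mt2 in GRDim, which lost its call without GRDim water ileum unnumbered a. Between genotypes on zinc it gave -1.75 to -0.81, -1.59 to -1.0 and -1.56 to -0.78 for Mt1, Mt2 and Mt4, each called without GRWT zinc ileum replicate 2 and in no other such fit, and -1.04 to -0.10 for the interaction of Mt1.

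Counts of all genes called moved more. Zinc in GRWT gave 26 (6 to 152 under other settings, 15 with the replicate block), zinc in GRDim 87 (8 to 310, 224 with the block), genotype on water 897 (4 to 1673), genotype on zinc 614 (8 to 781, 127 with the block), the interaction 0 (up to 42, and 6 with the block), muscle class 3607 (up to 5520) and zinc in GRWT by muscle class 3 (up to 466 by DESeq2, and 6663 without GRWT zinc ileum replicate 2). Over all libraries, leaving out 1 library gave 13 to 98 for zinc in GRWT, 29 to 273 for zinc in GRDim, 508 to 1199 for genotype on water, 308 to 932 for genotype on zinc and 0 to 2 for the interaction. In muscle-poor libraries, DESeq2 and leaving out 1 library gave 449 and 2 to 4365 for zinc in GRWT (6 in the main design), 73 and 3 to 207 for zinc in GRDim (8), 43 and 2 to 138 for genotype on water (4), 750 and 3 to 4551 for genotype on zinc (8), and 4 and 0 to 5702 for the interaction (0). In muscle-rich libraries leaving out 1 library gave 12 to 37 for zinc in GRWT (26) and 110 to 304 for zinc in GRDim (212), and the interaction (42) gave 303 by DESeq2 and 5 to 346. Fits with 2 libraries in a group, and the reads of Mt4 on water, limit the precision.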

Other observations

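The ratio of Mt1 to Mt2 per length was lower on zinc than on water. In GRWT it was 7.86 ± 2.93 (SD, n = 5, range 4.36 to 12.3) on water and 4.47 ± 0.51 (n = 5, 4.02 to 5.25) on zinc. In GRDim it was 9.21 ± 2.96 (n = 6, 6.23 to 13.3) on water and 5.27 ± 0.86 (n = 6, 4.00 to 6.71) on zinc, and the groups overlapped in both genotypes. An exact permutation test of the mean log2 ratio, with labels exchanged within muscle class, two-sided and chosen after the data had been seen, gave a difference of -0.74 in GRWT (p = 0.0333 over 120 permutations) and -0.76 in GRDim (p = 0.01 over 400 permutations). Adjusted over these 2 tests, p was 0.0333 and 0.02. Without 1 library at a time the exact p rose to at most 0.0667 in GRWT and 0.02 in GRDim. Mt2 may have gained or lost reads over the overlapping antisense gene Gm45774, since the strand setting and the handling of reads in overlapping genes are not given. The part of this in the ratio was not tested. Reads of Mt2 on water were few in several libraries, and their part in the ratio was not tested.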
